A study of Mus musculus with 12 samples.

Results

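The response of estradiol-induced G1E-ER4 cells to Thiamet-G (TMG) was examined by RNA sequencing. G1E-ER4 is a mouse erythroid progenitor line kept under puromycin selection, in which GATA-1 is expressed as a fusion with the estrogen receptor. Of the 12 libraries of the series, 6 enter the comparison: 3 of cells given 1 µM β-estradiol (E2) and 3 of cells given 1 µM E2 together with 10 µM TMG (TMG_E2), each for 30 h in medium with erythropoietin and stem cell factor. The remaining libraries are 3 of untreated cells (Ctrl) and 3 of cells given 10 µM TMG alone for 30 h. No treatment time is recorded for Ctrl. These libraries are used only to ask whether the response differs with E2. All groups carry the fusion protein, and no library comes from cells that lack it, so any action of E2 outside the fusion was not measured. Of 32699 genes in the files, the 7779 with a CPM (count scaled to the library's total) above 10 in at least 2 of the 6 libraries were tested.

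O-GlcNAc is a single sugar that the enzyme OGT adds to serine and threonine residues of nuclear and cytoplasmic proteins and that the enzyme OGA removes. TMG blocks OGA, so the modification accumulates on its targets. GATA-1 is the master regulator of red cell differentiation, and in this line E2 releases the fusion protein to switch on globin, heme and membrane genes while the cells slow their growth. The modified proteins include RNA polymerase II and many transcription factors, so the question of this comparison is which transcripts change when O-GlcNAc removal is blocked while the cells mature.

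The labels give the cell type as embryonic stem cell, which the transcripts do not bear out: of 9 embryonic stem cell markers, 7 had 0 counts in all 6 libraries and the summed level of the list was at most 0.294 CPM in any library. The 9 erythroid markers summed to 39650 to 42612 CPM in the E2 libraries and to 40152 to 44616 CPM in the TMG_E2 libraries. Lymphoid markers summed to at most 0.272 CPM. The 6 libraries held 17788131 to 23178721 expected counts each. TMG_E2 replicate 3 stood apart from the other 5 libraries on the first principal component of the 7779 genes, which took 40.7% of the variance, and the TMG_E2 libraries differed more among themselves (chi-square per degree of freedom 8.66 to 13.1 for pairs of libraries) than the E2 libraries did (2.99 to 3.93). No source used here states that the replicates are separate cultures, so p-values measure the spread between libraries, which may be technical. In these bulk libraries fewer cells of a type and less RNA per cell cannot be told apart.

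TMG changed many transcripts slightly. With edgeR's quasi-likelihood test, 472 genes (6.07% of those tested) differed between TMG_E2 and E2 at a Benjamini-Hochberg adjusted p under 0.05, of which 188 were higher with TMG (2.42%) and 284 lower (3.65%). The median change of the called genes was 1.20-fold for those higher and 1.23-fold for those lower, and the smallest was 1.11-fold. A change of 1.5-fold or more was seen for 26 called genes, 8 higher and 18 lower, and each of these stayed below 50 CPM in both groups. Aldehyde oxidase Aox4 alone passed 2-fold. Over all 7779 tested genes, called or not, 3758 log2 fold changes were positive and 4021 negative. The 3 libraries of each group did not overlap for any of the 472 genes, a separation that 28.2% of all tested genes also showed. Same-numbered E2 and TMG_E2 libraries deviated together, and a fit with the replicate number as a block called 1315 genes (16.9%; 565 higher, 7.26%, and 750 lower, 9.64%), among them all 472. A fit of all 12 libraries called 981 (12.6%; 473 higher, 6.08%, and 508 lower, 6.53%). Of the called genes, 8 passed the expression filter through the TMG_E2 libraries only and 23 through the E2 libraries only.

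**Figure D1:**
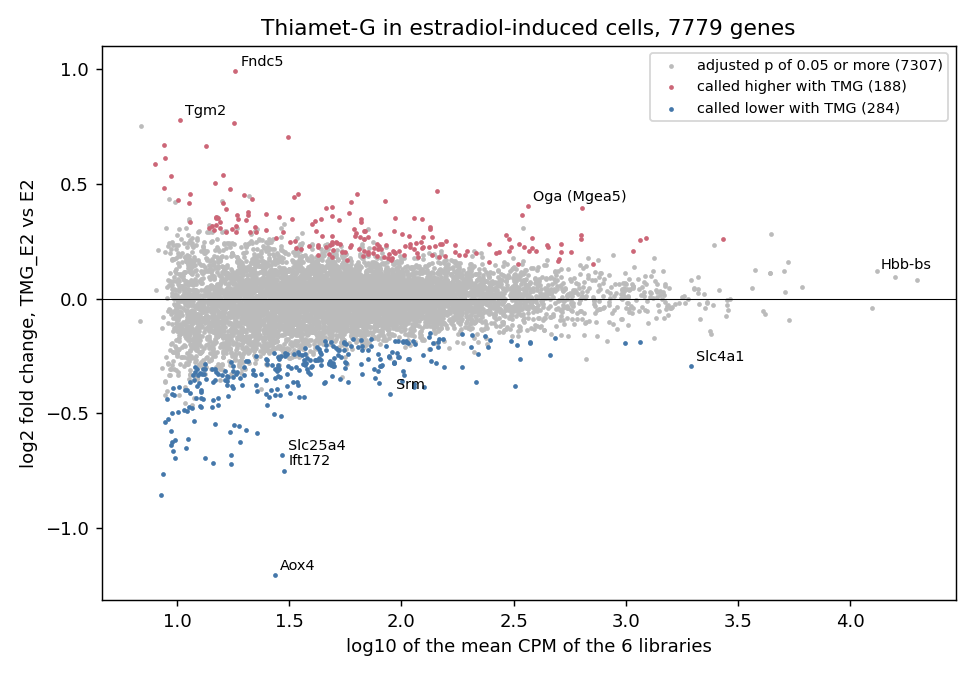
Log2 fold change of TMG_E2 against E2 (vertical axis) plotted against log10 of the mean TMM-scaled CPM of the 6 libraries (horizontal axis) for 7779 genes, with the 188 called higher in red and the 284 called lower in blue. Aox4 at -1.20 and Fndc5 at 0.99 lie farthest out among called genes, and abundant transcripts such as Hbb-bs sit near 0.

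The number of calls depended on single libraries, in fits that carry no replicate block. Without E2 replicate 1, 2 or 3 the test called 172, 146 and 75 genes, and without TMG_E2 replicate 2 it called 271. Leaving out TMG_E2 replicate 1 or replicate 3 gave 577 and 540 calls, and 375 of the 472 genes were among those called without TMG_E2 replicate 3. Of 115 called genes that were followed library by library, 32 kept their call in all 6 of these fits.

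**Figure D2:**
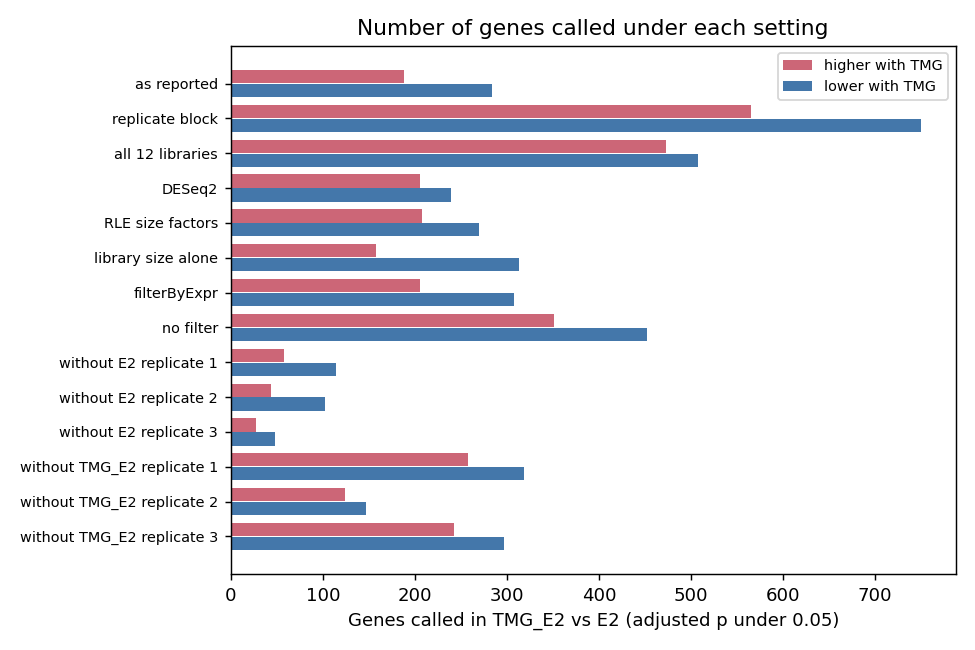
Bars give the number of genes called higher (red) and lower (blue) in TMG_E2 against E2 under the fit as reported, 7 alternatives and the 6 fits that leave out a library. Calls run from 75 in all without E2 replicate 3 to 1315 with the replicate block, and more genes were lower than higher under each of these settings.

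The transcript of the enzyme that TMG inhibits rose. Oga, which the files name Mgea5 (chr19:45750255-45783644, GRCm38), stood at 325, 315 and 306 CPM with E2 alone and 424, 414 and 412 CPM with TMG and E2. The groups did not overlap, and the rise was 1.32-fold (log2 fold change 0.40 ± 0.04 (SE), adjusted p = 0.00070); the call held in all 6 fits that left out a library. Ogt, the transferase (chrX:101640011-101684351), stood at 461, 468 and 453 CPM in the E2 libraries against 519, 507 and 477 CPM in the TMG_E2 libraries. All 3 TMG_E2 libraries were above the E2 libraries, but the difference did not pass the test (log2 fold change 0.12 ± 0.05 (SE), adjusted p = 0.14); it passed with the block (adjusted p = 0.044) and without TMG_E2 replicate 3 (adjusted p = 0.026), under which the change kept its sign. Per transcript length the mean level of Oga went from 115 to 144 TPM and that of Ogt from 183 to 201 TPM, so the transcript of the eraser remained the less abundant of the pair.

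Of 14 tested genes of O-GlcNAc cycling and the hexosamine pathway, which makes the donor sugar UDP-GlcNAc, 3 were higher and none lower (6 and 0 with the block), or 21.4% called beside 6.07% of all tested genes, with a median log2 fold change of 0.02 (0.0049 to 0.071 in the fits without a library) beside -0.0044 over all genes. The members that rose besides Oga act at the edges of the pathway. Gnpda1, a glucosamine-6-phosphate deaminase that returns amino sugar to glycolysis, stood at 136, 143 and 141 CPM with E2 alone and 162, 164 and 169 CPM with TMG and E2 (log2 fold change 0.24 ± 0.04 (SE), adjusted p = 0.010). Renbp, an N-acetylglucosamine epimerase, stood at 58.8, 59.0 and 59.5 CPM with E2 alone and 66.5, 68.2 and 79.3 CPM with TMG and E2 (log2 fold change 0.27 ± 0.06 (SE), adjusted p = 0.029). Both separated the groups, although TMG_E2 replicate 3 carried the highest Renbp value. Gnpda1 lost its call without E2 replicate 1 or 3 (adjusted p = 0.058 and 0.064) and Renbp without E2 replicate 1, 2 or 3 (adjusted p up to 0.12). None of the enzymes that build the donor sugar passed the test: Gfpt1, the rate-limiting entry enzyme, had a log2 fold change of -0.01 (adjusted p = 0.96), Pgm3 0.02 (adjusted p = 0.90) and Uap1 -0.04 (adjusted p = 0.66). Of the other members, log2 fold changes ran from -0.08 (Nans) to 0.19 (Uap1l1), and none was called; Uap1l1 and Cmas, a sialic acid enzyme (0.16), passed with the block (adjusted p = 0.013 and 0.012).

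**Figure D3:**
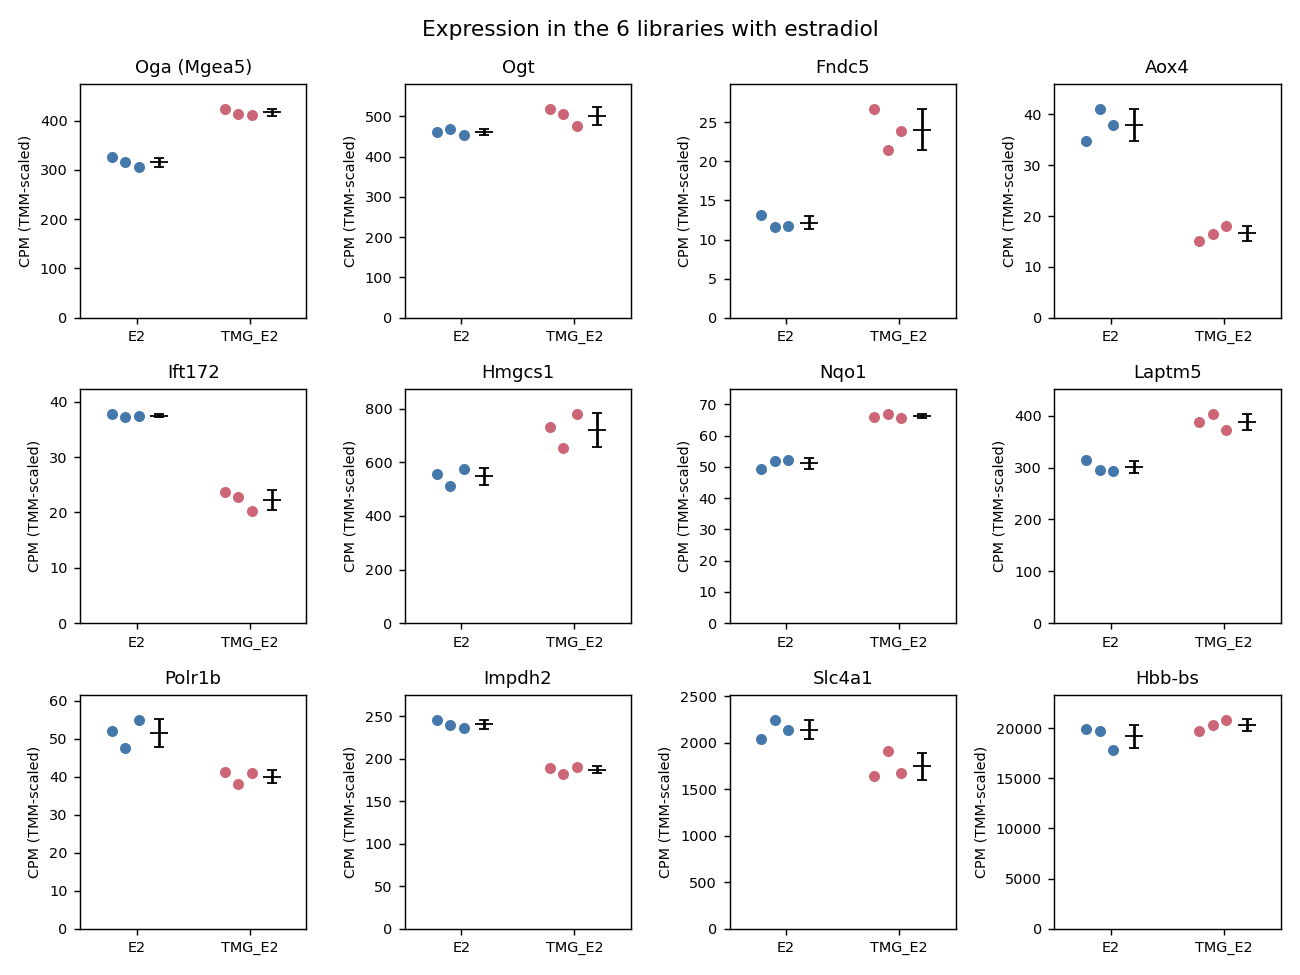
TMM-scaled CPM (vertical axes, from 0) of 12 genes in the 3 E2 libraries (blue) and the 3 TMG_E2 libraries (red), each point a library in replicate order from left to right, with the group mean and SD in black. Oga, Fndc5, Hmgcs1, Nqo1 and Laptm5 lie higher with TMG and Aox4, Ift172, Polr1b, Impdh2 and Slc4a1 lower, while the Hbb-bs values of the groups overlap.

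The genes that rose most were of mixed function and low abundance. Fndc5, which encodes the membrane precursor of irisin (chr4:129136870-129144593, GRCm38), stood at 13.1, 11.6 and 11.7 CPM with E2 alone and 26.7, 21.5 and 23.9 CPM with TMG and E2, a 1.99-fold rise (log2 fold change 0.99 ± 0.09 (SE), adjusted p = 0.00043). Every TMG_E2 library was above every E2 library, and the lowest of them was well above the highest E2 value. Tgm2, tissue transglutaminase, stood at 9.14, 7.37 and 6.38 CPM in the E2 libraries against 15.2, 11.3 and 12.2 CPM in the TMG_E2 libraries (log2 fold change 0.78 ± 0.14 (SE), adjusted p = 0.010); its call was lost without E2 replicate 3 (adjusted p = 0.067). Mdk, the secreted growth factor midkine, stood at 23.3, 22.7 and 24.8 CPM with E2 alone and 34.3, 37.7 and 43.8 CPM with TMG and E2 (log2 fold change 0.71 ± 0.09 (SE), adjusted p = 0.0014). TMG_E2 replicate 3 was the highest library for Mdk and TMG_E2 replicate 1 for Tgm2. Mylk3, a myosin light chain kinase, stood at 7.41, 6.202 and 6.72 CPM in the E2 libraries against 11.1, 10.8 and 10.3 CPM in the TMG_E2 libraries (log2 fold change 0.67 ± 0.10 (SE), adjusted p = 0.0036). Parp14, a mono-ADP-ribosyltransferase, stood at 13.2, 13.5 and 12.6 CPM in the E2 libraries against 20.0, 19.9 and 17.0 CPM in the TMG_E2 libraries (log2 fold change 0.54 ± 0.08 (SE), adjusted p = 0.0048). The groups of these genes did not overlap, and Fndc5, Mdk, Mylk3 and Parp14 were called in all 6 fits that left out a library.

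Further members of the 10 highest were BC147260 at 1.70-fold, Aim1 at 1.58-fold, Rsc1a1 at 1.53-fold, Tmem44 at 1.503-fold and Fermt3 at 1.45-fold. BC147260 and Aim1 were called in all 6 fits without a library. Tgm2, Mylk3, Rsc1a1, Tmem44 and Fermt3 stayed under 10 CPM in every E2 library, so that the expression filter kept them through the TMG_E2 libraries. The last 3 lost their calls most often. Without TMG_E2 replicate 3, the library that stood apart, adjusted p was 0.0522 for Rsc1a1, 0.0548 for Tmem44 and 0.064 for Fermt3. Without E2 replicate 2 it was 0.057, 0.088 and 0.13. Rsc1a1 and Fermt3 also lost the call without E2 replicate 3 (0.064 and 0.12) and TMG_E2 replicate 2 (0.090 and 0.064), and Rsc1a1 and Tmem44 without E2 replicate 1 (0.070 and 0.093). Rsc1a1 lies within the gene Ddi2, so reads of that gene may be counted for it.

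Among the genes that fell, Aox4, one of the aldehyde oxidases, which oxidise aldehydes and retinal with a molybdenum cofactor, changed most. Aox4 (chr1:58210397-58268600, GRCm38) stood at 34.9, 41.1 and 37.9 CPM with E2 alone and 15.1, 16.5 and 18.1 CPM with TMG and E2. Every TMG_E2 library had less than any E2 library, and the fall was 2.30-fold (log2 fold change -1.20 ± 0.09 (SE), adjusted p = 5.5e-05). All 6 tested genes of the aldehyde and molybdenum oxidase list had a negative log2 fold change, as did 4021 of all 7779 tested genes. The median of the list was -0.06 (-0.04 without TMG_E2 replicate 2 or 3). Aox4 was the member called (16.7% beside 6.07% of all genes). Slc25a4, the mitochondrial ADP/ATP carrier, stood at 34.7, 37.5 and 36.5 CPM in the E2 libraries against 21.1, 21.7 and 25.1 CPM in the TMG_E2 libraries (log2 fold change -0.68 ± 0.08 (SE), adjusted p = 0.00077). Acad10, of the acyl-CoA dehydrogenase family, stood at 21.6, 20.8 and 21.9 CPM in the E2 libraries against 13.5, 13.3 and 13.2 CPM in the TMG_E2 libraries (log2 fold change -0.68 ± 0.07 (SE), adjusted p = 0.00070). Gtf2h4, a subunit of the transcription and DNA repair factor TFIIH, stood at 22.9, 23.5 and 23.1 CPM in the E2 libraries against 15.3, 15.0 and 14.8 CPM in the TMG_E2 libraries (log2 fold change -0.63 ± 0.07 (SE), adjusted p = 0.00070). The E2 and TMG_E2 values of these 4 genes did not overlap and their calls held in all 6 fits that left out a library.

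The remaining genes of the 10 lowest included Mvb12a, a subunit of the ESCRT-I sorting complex (1.81-fold), the imprinted zinc finger gene Peg3 (1.70-fold), Pold4, the small subunit of DNA polymerase delta (1.64-fold), and the SNARE protein gene Snap47 (1.62-fold), all lower with TMG and called in each fit without a library. Mvb12a, Peg3 and Snap47 were under 10 CPM in every TMG_E2 library and passed the filter through the E2 libraries. The other 3 belong to intraflagellar transport, which carries cargo along cilia. Ift172 stood at 37.7, 37.3 and 37.4 CPM with E2 alone and 23.7, 22.8 and 20.2 CPM with TMG and E2 (log2 fold change -0.75 ± 0.07 (SE), adjusted p = 0.00043). Ift140 stood at 22.4, 21.6 and 21.1 CPM with E2 alone and 13.9, 13.3 and 12.1 CPM with TMG and E2 (log2 fold change -0.72 ± 0.08 (SE), adjusted p = 0.00070). Traf3ip1, also known as IFT54, stood at 16.4, 16.5 and 16.4 CPM with E2 alone and 10.1, 10.8 and 9.56 CPM with TMG and E2 (log2 fold change -0.69 ± 0.08 (SE), adjusted p = 0.00077). For each of them the E2 libraries lay close together and above all TMG_E2 libraries.

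Because of these 3 genes, a list of 33 intraflagellar transport genes was added after the values had been seen, so its count is a description. Of 15 tested members, 6 were lower and none higher (7 lower and 1 higher with the block), and the median log2 fold change was -0.20. The share called was 40% beside 6.07% of all genes. The others called were Dync2h1, the heavy chain of the retrograde motor, at -0.36 (adjusted p = 0.027), Tulp3, a cilium cargo adaptor, at -0.35 (adjusted p = 0.027), and Ift27 at -0.33 (adjusted p = 0.0497). These 3 were lost in at least 3 of the fits that left out a library, so that 3 to 5 members remained called, with 3 left without E2 replicate 1, 2 or 3. Kif3a and Kif3b, motor subunits of anterograde transport, had log2 fold changes of 0.03 and 0.03 (adjusted p = 0.86 and 0.86).

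Several sterol synthesis genes rose. Cholesterol is made from acetyl-CoA through mevalonate and squalene, and the transcripts of the pathway are set by the SREBP factors. Of 25 tested genes of sterol synthesis and uptake, 8 were higher and 1 lower (14 and 1 with the block; 36% called), and 22 of 25 had a positive log2 fold change, with a median of 0.12 (0.18 without TMG_E2 replicate 2) beside -0.0044 for all genes. The first committed enzyme, HMG-CoA synthase Hmgcs1, stood at 557, 513 and 574 CPM with E2 alone and 732, 651 and 779 CPM with TMG and E2, a 1.32-fold rise (log2 fold change 0.40 ± 0.07 (SE), adjusted p = 0.0066). Its TMG_E2 values were all above the E2 values, and replicate 2 was the lowest of both groups. Mvk, mevalonate kinase, stood at 79.6, 81.0 and 89.3 CPM in the E2 libraries against 93.8, 104 and 109 CPM in the TMG_E2 libraries (log2 fold change 0.29 ± 0.06 (SE), adjusted p = 0.019). Fdps, which makes farnesyl diphosphate, stood at 605, 549 and 577 CPM in the E2 libraries against 697, 649.5 and 723 CPM in the TMG_E2 libraries (log2 fold change 0.26 ± 0.05 (SE), adjusted p = 0.016).

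Idi1 (0.26), Fdft1 (0.26), Lss (0.23), Msmo1 (0.21) and Hsd17b7 (0.18), enzymes between isopentenyl diphosphate and the late sterols, made up the others higher, given as log2 fold changes. The single member that fell was Scap, the escort protein that brings SREBP to the Golgi, at 55.8, 57.2 and 57.6 CPM with E2 alone and 46.7, 49.3 and 50.2 CPM with TMG and E2 (log2 fold change -0.23 ± 0.05 (SE), adjusted p = 0.019). The count of higher members was 2, 1 and 2 without E2 replicate 1, 2 and 3, and 5, 9 and 7 without TMG_E2 replicate 1, 2 and 3. Over all tested genes the count higher also fell without E2 replicate 1, 2 or 3, from 188 to 58, 44 and 27. The median log2 fold change of the sterol list in those fits was 0.14, 0.11 and 0.16. Hmgcs1 was called in each of the 6 fits that left out a library, with the highest adjusted p at 0.041. Scap was called in 2 of them, those without TMG_E2 replicate 1 or 3.

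Promoter windows were read from RefSeq (GRCm38.p6) for genes of the lists, from 250 bases before to 50 after the annotated start, to show the letters that sterol, antioxidant, lysosomal and growth regulators are known to read near genes of these groups. The sterol regulatory element, searched as TCACNCCAC on both strands, lies in 1.24% of all 32851 windows. Of the 6 sterol genes called higher with a window, Hmgcs1 held a match, which starts 137 bases before its start site. The stretch around it on the forward strand of chr13:119690174-119690262 is shown with the match in capitals; a match describes the letters and does not show binding.
Hmgcs1: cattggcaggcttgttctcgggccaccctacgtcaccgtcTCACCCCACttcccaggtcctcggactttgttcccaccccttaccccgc

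Several genes of the NRF2 response were also higher. NRF2 is the transcription factor that induces antioxidant and detoxifying enzymes under oxidative stress. Of 22 tested targets and regulators, 6 were higher and none lower (11 and 0 with the block; 27.3% called), and the median log2 fold change was 0.13. Nqo1, the quinone reductase often used as a readout of this response, stood at 49.2, 52.0 and 52.2 CPM with E2 alone and 65.9, 66.9 and 65.8 CPM with TMG and E2 (log2 fold change 0.37 ± 0.05 (SE), adjusted p = 0.0014). Srxn1, sulfiredoxin, which repairs oxidised peroxiredoxins, stood at 96.7, 98.9 and 103 CPM with E2 alone and 128, 128 and 125 CPM with TMG and E2 (log2 fold change 0.35 ± 0.04 (SE), adjusted p = 0.0014). In both genes the 3 TMG_E2 values were close together and clear of the E2 values, and both calls held in all 6 fits without a library.

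The other 4 were the peroxiredoxin Prdx1 (0.20), the pentose phosphate enzyme Taldo1 (0.20), the selective autophagy receptor Sqstm1 (0.24) and the ferritin heavy chain Fth1 (0.25), on the log2 scale. Fth1 stood at 1019, 1081 and 1072 CPM in the E2 libraries against 1126, 1311 and 1343 CPM in the TMG_E2 libraries (log2 fold change 0.25 ± 0.06 (SE), adjusted p = 0.037), and its TMG_E2 replicate 1 was nearest to the E2 libraries. Without TMG_E2 replicate 3 its adjusted p was 0.0507 and that of Sqstm1 0.073, and the list kept 2 calls without any one E2 library, 3 without TMG_E2 replicate 2 and 6 to 8 otherwise. Heme oxygenase Hmox1 had a log2 fold change of 0.18 (adjusted p = 0.41, 0.014 with the block), and Gclm, of glutathione synthesis, 0.17 (adjusted p = 0.063, 0.0069 with the block). Of 12 peroxide and superoxide genes 2 were higher (4 with the block), a share of 16.7% beside 6.07% of all genes. These were Prdx4 at 0.29 (adjusted p = 0.041) and glutaredoxin Glrx at 0.27 (adjusted p = 0.017). Both were lost without any one of the E2 libraries, with adjusted p up to 0.15 and 0.082, and Prdx4 also without TMG_E2 replicate 1 or 3.

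The antioxidant response element, searched as TGACNNNGC on both strands, lies in 12.4% of all windows and in 17.5% of the windows of 6245 tested genes. Of 18 tested NRF2 genes with a window 9 held a match, and of the 6 called higher 2 did, Prdx1 and Srxn1. The Prdx1 match lies on the reverse strand and begins 133 bases before the start; the capitals mark it in the forward strand of chr4:116685426-116685514.
Prdx1: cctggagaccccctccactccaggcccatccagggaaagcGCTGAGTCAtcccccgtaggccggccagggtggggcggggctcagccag

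Some lysosomal genes were higher, both enzymes and membrane proteins. Of 18 tested hydrolases 3 were higher and none lower (9 and 0 with the block; 16.7% called; median log2 fold change 0.13), and of 23 genes of the lysosomal membrane and its proton pump, the V-ATPase, 5 were higher and none lower (11 and 0 with the block; 21.7% called; median 0.12, and 0.08 without TMG_E2 replicate 3). Laptm5, a lysosomal membrane protein of blood cells, stood at 314, 296 and 294 CPM with E2 alone and 388, 403 and 372 CPM with TMG and E2 (log2 fold change 0.36 ± 0.05 (SE), adjusted p = 0.0018). Man2b1, lysosomal alpha-mannosidase, stood at 61.5, 58.7 and 64.0 CPM with E2 alone and 76.7, 73.4 and 75.5 CPM with TMG and E2 (log2 fold change 0.29 ± 0.05 (SE), adjusted p = 0.0069). The groups were well separated for both, which were called in all 6 fits without a library. Lamp2 stood at 122, 127 and 124 CPM in the E2 libraries against 147, 156 and 146 CPM in the TMG_E2 libraries (log2 fold change 0.27 ± 0.04 (SE), adjusted p = 0.0068) and lost its call only without E2 replicate 3 (adjusted p = 0.0552).

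The others higher were the proteases Ctsc (0.27) and Ctsd (0.17), the membrane glycoprotein Lamp1 (0.24) and the V-ATPase subunits Atp6v1d (0.23) and Atp6v1h (0.19), as log2 fold changes. The hydrolase count was 1 without E2 replicate 2 or 3 and 5 without TMG_E2 replicate 1. The membrane count was 2, 2 and 1 without E2 replicate 1, 2 and 3, 3 without TMG_E2 replicate 2 and 9 without TMG_E2 replicate 1. Of 28 autophagy genes 2 were higher and none lower (4 and 0 with the block), a share of 7.14%, near that of all genes: Map1lc3b, the LC3B protein of the autophagosome, at 0.24 (adjusted p = 0.018), and the cargo receptor Nbr1 at 0.19 (adjusted p = 0.041). No autophagy gene was called without E2 replicate 1, 2 or 3, and 1 was called without TMG_E2 replicate 2. The coordinated lysosomal expression element (CLEAR), searched as TCACGTGA, which contains the E-box CACGTG and reads the same on both strands, lies in 0.974% of all windows and in 3.04% of those of tested genes. Of the 3 hydrolase genes called, Ctsd held it, starting 99 bases before the start site, while 0 of 4 called membrane genes and 0 of 2 called autophagy genes with a window did. The reverse strand of chr7:142387879-142387966 is shown with the element in capitals.
Ctsd: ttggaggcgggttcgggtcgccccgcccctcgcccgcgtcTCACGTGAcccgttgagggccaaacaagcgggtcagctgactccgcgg

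Ribosome biogenesis genes were among those that fell. Ribosomes are assembled in the nucleolus around RNA made by RNA polymerase I, and MYC drives many of the genes involved. Of 53 tested ribosome biogenesis genes 10 were lower and none higher (26 and 0 with the block; 18.9% called), and 47 of 53 had a negative log2 fold change, with a median of -0.14. Polr1b, the second largest subunit of RNA polymerase I, stood at 52.0, 47.6 and 55.0 CPM with E2 alone and 41.1, 38.1 and 40.9 CPM with TMG and E2 (log2 fold change -0.36 ± 0.06 (SE), adjusted p = 0.0075). Nop2, an rRNA methyltransferase, stood at 85.9, 80.9 and 94.9 CPM in the E2 libraries against 69.9, 68.7 and 71.8 CPM in the TMG_E2 libraries (log2 fold change -0.31 ± 0.06 (SE), adjusted p = 0.011). Mybbp1a, a nucleolar protein, stood at 366, 352 and 388 CPM in the E2 libraries against 304, 308 and 310.3 CPM in the TMG_E2 libraries (log2 fold change -0.26 ± 0.05 (SE), adjusted p = 0.0081). E2 replicate 3 was the highest library for all 3 genes, and the groups did not overlap.

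The others lower were Rrp1b (-0.33), Nop16 (-0.31), Bop1 (-0.26), Polr1a (-0.25), Tsr1 (-0.22), Nolc1 (-0.21) and the pseudouridine synthase Dkc1 (-0.19), on the log2 scale. Without E2 replicate 3 no member was called, and adjusted p was 0.058 for Polr1b, 0.069 for Nop2 and 0.068 for Mybbp1a. The count was 5 and 6 without E2 replicate 1 and 2, 5 without TMG_E2 replicate 2, 9 without TMG_E2 replicate 1 and 16 without TMG_E2 replicate 3. Of the ribosomal proteins themselves a smaller share was called than of all genes: of 79 cytosolic members 1 was higher, Rps16 at 0.21 (adjusted p = 0.0490; 5 higher and 1 lower with the block), with a median of 0.01 (-0.03 without TMG_E2 replicate 3), and of 76 mitochondrial members 2 were lower, Mrpl17 at -0.27 and Mrpl24 at -0.28 (adjusted p = 0.027 and 0.011; 2 higher and 5 lower with the block). Rps16 was lost without any one E2 library or TMG_E2 replicate 2 (adjusted p up to 0.19), Mrpl24 without E2 replicate 1 (0.057) and Mrpl17 in each fit but that without TMG_E2 replicate 3 (up to 0.13).

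The E-box CACGTG, which MYC and its partner MAX bind, lies in 7.15% of all windows and in 13.4% of those of tested genes. Of 47 ribosome biogenesis genes with a window 10 held it (21.3%), and of the 9 called lower 3 did: Nop2, Tsr1 and Mybbp1a. The Nop2 match begins 60 bases before the start and is in capitals in the forward strand of chr6:125131783-125131868.
Nop2: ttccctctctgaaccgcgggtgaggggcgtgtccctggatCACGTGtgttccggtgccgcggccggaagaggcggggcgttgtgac

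Myc itself stood at 93.8, 81.8 and 80.8 CPM with E2 alone and 77.1, 73.5 and 72.6 CPM with TMG and E2. Its TMG_E2 values were below all E2 values but did not pass the test (log2 fold change -0.20 ± 0.06 (SE), adjusted p = 0.074; 0.0036 with the block). Of 24 MYC targets outside the nucleolus 6 were lower and none higher (10 and 0 with the block; 25% called; median log2 fold change -0.11). Srm, spermidine synthase, stood at 95.9, 102 and 108 CPM with E2 alone and 68.7, 76.5 and 84.6 CPM with TMG and E2 (log2 fold change -0.42 ± 0.07 (SE), adjusted p = 0.0074). Impdh2, the rate-limiting enzyme of guanine nucleotide synthesis, stood at 246, 239.5 and 236 CPM with E2 alone and 189, 182 and 189.9 CPM with TMG and E2 (log2 fold change -0.36 ± 0.04 (SE), adjusted p = 0.00077). Cad, which starts pyrimidine synthesis, stood at 170.1, 164 and 176 CPM with E2 alone and 137, 141 and 137 CPM with TMG and E2 (log2 fold change -0.30 ± 0.04 (SE), adjusted p = 0.0031). The 3 genes separated the groups; Impdh2 and Cad kept their call in every fit without a library, and Srm lost it without E2 replicate 3 (adjusted p = 0.059).

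The nucleotide and one-carbon list overlaps that of MYC targets. Of its 26 tested members 6 were lower and none higher (13 and 0 with the block; 23.1% called), 24 had a negative log2 fold change and the median was -0.12. Besides Impdh2 and Cad these were the purine enzyme Gart (-0.27), the CTP synthase Ctps (-0.25) and the folate enzymes Shmt1 (-0.32) and Mthfd1 (-0.21); Nme2 (-0.31), a nucleoside diphosphate kinase, was lower among the MYC targets, though its reads may be shared with the close paralog Nme1. Without E2 replicate 3 both lists kept 2 calls, Impdh2 and Cad. Without E2 replicate 1, E2 replicate 2 or TMG_E2 replicate 2 the one-carbon and nucleotide list kept 4 each.

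Several mitochondrial carriers were lower, and few respiratory chain genes were called. Of 27 tested carriers and enzymes of pyruvate entry 6 were lower and 1 higher (9 and 2 with the block; 25.9% called), and the median log2 fold change of the list was 0.0049, with either sign under the alternatives (-0.0228 without TMG_E2 replicate 3). Besides Slc25a4, Pcx, pyruvate carboxylase, stood at 21.9, 20.3 and 22.1 CPM with E2 alone and 14.3, 16.3 and 13.2 CPM with TMG and E2 (log2 fold change -0.55 ± 0.09 (SE), adjusted p = 0.0049) and held its call in each fit without a library. Slc25a3, the phosphate carrier, stood at 400.4, 398 and 399 CPM in the E2 libraries against 341, 357 and 347 CPM in the TMG_E2 libraries (log2 fold change -0.20 ± 0.04 (SE), adjusted p = 0.016), and was lost without any one E2 library (adjusted p up to 0.094, without E2 replicate 3). The groups of both genes were apart. Pdk2 (-0.32) and Pdha1 (-0.19), which restrains and forms part of pyruvate dehydrogenase respectively, were among those lower, and the aspartate-glutamate carrier Slc25a12 (0.23) was higher. The number lower was 2 without E2 replicate 1, 2 or 3 and 3 without TMG_E2 replicate 2. Of 75 oxidative phosphorylation genes 2 were higher, Uqcrb at 0.18 and Atp5l at 0.21 (adjusted p = 0.044 and 0.017), and none lower (4 and 2 with the block), a share of 2.67%. No member of that list was called without E2 replicate 1, 2 or 3, and 1 was higher and 2 lower without TMG_E2 replicate 3.

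**Figure D4:**
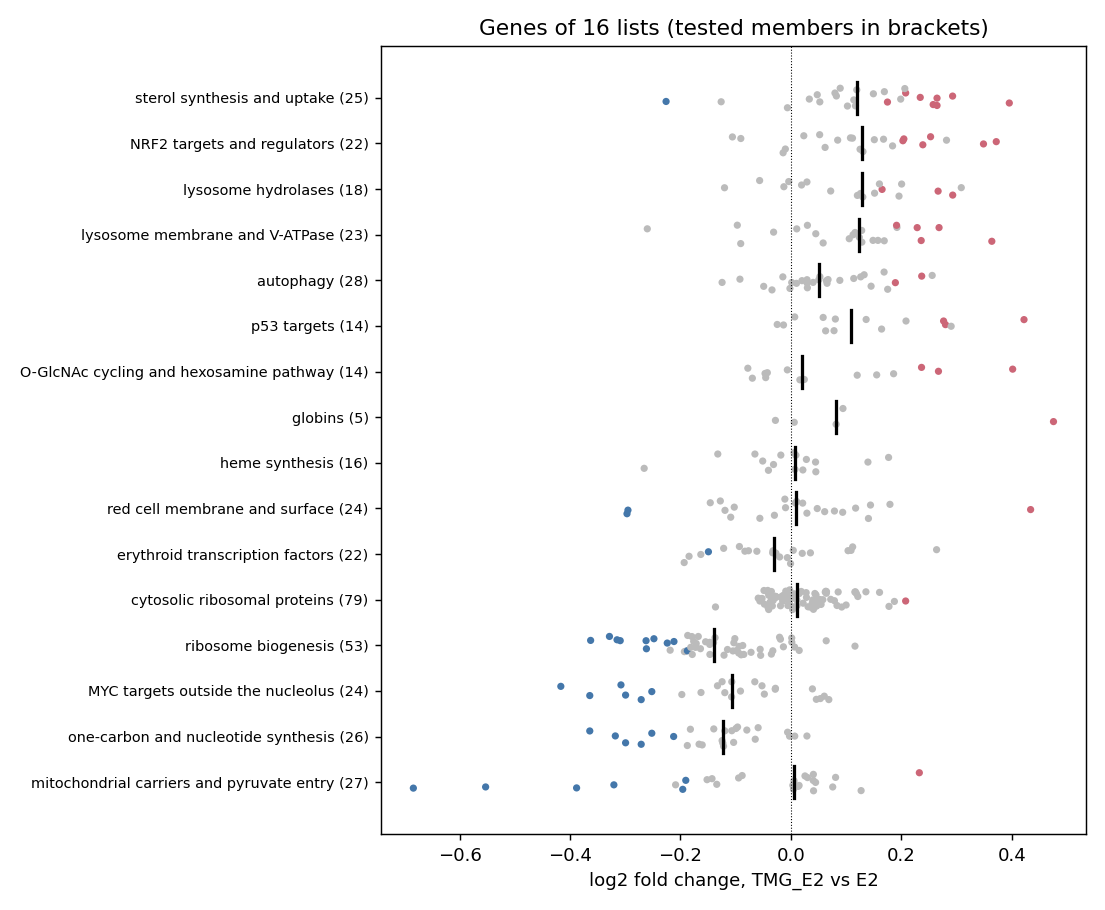
Log2 fold changes of TMG_E2 against E2 (horizontal axis) for the tested genes of 16 lists, 1 point per gene, red where called higher, blue where called lower and grey otherwise, with a black bar at each list's median. Vertical scatter within a list has no meaning. The medians of the sterol, NRF2 and lysosome lists lie at 0.12 to 0.13 (0.08 for the lysosome membrane without TMG_E2 replicate 3) and that of ribosome biogenesis at -0.14.

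The erythroid lists held few calls in number: 20% of the globins, 12.5% of the red cell membrane list, 10% of iron handling, 4.55% of the erythroid transcription factors and 0% of heme synthesis were called beside 6.07% of all genes. Of 5 tested globin genes 1 was called. Hbb-bs, an adult beta globin, stood at 19924, 19729 and 17849 CPM with E2 alone and 19681, 20351 and 20833 CPM with TMG and E2 (log2 fold change 0.08 ± 0.06 (SE), adjusted p = 0.48). Hba-a2, an alpha globin, stood at 15098, 15753 and 14879.6 CPM with E2 alone and 13625, 17128 and 18072 CPM with TMG and E2 (log2 fold change 0.09 ± 0.09 (SE), adjusted p = 0.58). The values of the groups overlapped for both, and TMG_E2 replicate 1 was the lowest of the 6 for Hba-a2. Hbb-bh1, an embryonic beta-like globin, stood at 16.6, 13.8 and 13.002 CPM in the E2 libraries against 20.9, 19.4 and 19.9 CPM in the TMG_E2 libraries (log2 fold change 0.48 ± 0.09 (SE), adjusted p = 0.012), with all TMG_E2 libraries above the E2 libraries; it lost its call without E2 replicate 2 or 3 (adjusted p = 0.068 and 0.083). Per transcript length its mean level went from 47.7 to 64.6 TPM beside 59068 to 61172 TPM for Hbb-bs. Hbb-b2 and Hbq1b had log2 fold changes of 0.01 and -0.03 (adjusted p = 0.98 and 0.87). Globin copies are nearly identical in sequence, and how reads were shared out between them is uncertain.

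None of the 16 tested heme synthesis genes was called by edgeR (3 at an unadjusted p under 0.05, 1 with DESeq2, 3 with the block). Alas2, the erythroid enzyme that starts heme synthesis, stood at 613, 646 and 637 CPM with E2 alone and 686, 690.4 and 712 CPM with TMG and E2. The groups did not overlap, and the difference did not pass the test, but did with the block (log2 fold change 0.14 ± 0.04 (SE), adjusted p = 0.078; 0.020 with the block). Of 20 iron handling genes Fth1 was higher and Slc25a37, mitoferrin 1, which brings iron into mitochondria, was lower at 1064, 1087 and 1030.3 CPM with E2 alone and 922, 964 and 894 CPM with TMG and E2 (log2 fold change -0.19 ± 0.05 (SE), adjusted p = 0.032; 2 higher and 3 lower in the list with the block). Slc25a37 was lost without E2 replicate 1, 2 or 3, with adjusted p up to 0.16, and Fth1 in 5 of the 6 fits.

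Among 24 genes of the red cell membrane and surface 1 was higher and 2 lower (3 and 4 with the block). Slc4a1, the anion exchanger known as band 3, stood at 2040.2, 2249 and 2134 CPM with E2 alone and 1646, 1911 and 1679 CPM with TMG and E2 (log2 fold change -0.29 ± 0.06 (SE), adjusted p = 0.019). Dmtn, dematin, an actin binding protein of the membrane skeleton, stood at 192, 213 and 211 CPM with E2 alone and 150.3, 172 and 179.9 CPM with TMG and E2 (log2 fold change -0.30 ± 0.06 (SE), adjusted p = 0.021). Aqp9, a water and glycerol channel, stood at 20.6, 17.3 and 17.3 CPM with E2 alone and 28.2, 23.3 and 22.8 CPM with TMG and E2 (log2 fold change 0.43 ± 0.10 (SE), adjusted p = 0.026). The groups did not overlap for these 3 genes. Without E2 replicate 2 and without E2 replicate 3, adjusted p was 0.11 and 0.097 for Slc4a1, 0.099 and 0.11 for Dmtn, and 0.12 and 0.13 for Aqp9; Dmtn also missed the threshold without TMG_E2 replicate 2 (0.0533). The spectrin gene Sptb had a log2 fold change of -0.06 (adjusted p = 0.61).

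Of 22 erythroid transcription factor genes 1 was called lower, Bcl11a, a repressor of embryonic and fetal globin genes, at 141, 141 and 139 CPM with E2 alone and 127, 127 and 126 CPM with TMG and E2 (log2 fold change -0.15 ± 0.04 (SE), adjusted p = 0.0469; 1 higher and 4 lower in the list with the block). The call of Bcl11a was lost in each of the 6 fits without a library (adjusted p up to 0.18, without E2 replicate 2), with DESeq2 (0.079), with its size factors (0.054) and with filterByExpr (0.063) or no filter (0.0998). Gata1, whose count may include transcripts of the fusion, stood at 432, 438 and 452 CPM with E2 alone and 426, 461 and 439.5 CPM with TMG and E2 (log2 fold change 0.00 ± 0.04 (SE), adjusted p = 0.97). Klf1, which activates adult beta globin, stood at 249, 266 and 274 CPM with E2 alone and 238, 263 and 272 CPM with TMG and E2 (log2 fold change -0.03 ± 0.06 (SE), adjusted p = 0.79). The values of both overlapped between the groups. Gata2, which GATA-1 replaces and represses in maturing cells, stood at 19.1, 18.8 and 21.9 CPM with E2 alone and 22.3, 25.2 and 26.04 CPM with TMG and E2, higher in all 3 TMG_E2 libraries but not past the threshold of the test (log2 fold change 0.29 ± 0.08 (SE), adjusted p = 0.064; 0.0086 with the block). Kit, the receptor for stem cell factor, stood at 93.9, 88.0 and 88.6 CPM with E2 alone and 102, 95.2 and 92.1 CPM with TMG and E2 (log2 fold change 0.10 ± 0.05 (SE), adjusted p = 0.28), with overlapping groups.

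Genes of growth arrest were among those that rose. Of 14 tested p53 targets 3 were higher and none lower (6 and 0 with the block; 21.4% called; median log2 fold change 0.11). Cdkn1a, the cyclin-dependent kinase inhibitor p21, stood at 92.3, 88.8 and 91.4 CPM with E2 alone and 107, 109.5 and 114 CPM with TMG and E2 (log2 fold change 0.28 ± 0.04 (SE), adjusted p = 0.0052). Trp53inp1, a p53-induced nuclear protein, stood at 49.7, 52.6 and 50.3 CPM with E2 alone and 72.5, 69.0 and 62.8 CPM with TMG and E2 (log2 fold change 0.42 ± 0.06 (SE), adjusted p = 0.0023). Both separated the groups and were called in all 6 fits without a library, while Ccng1 (0.28) missed the threshold without E2 replicate 3 (adjusted p = 0.0522). Of 15 cell cycle inhibitors 2 were higher (4 with the block), a share of 13.3% beside 6.07% of all genes. Both, Cdkn1a and Ccng1, are also on the p53 list. Replication and mitosis genes were called no more often than all genes: 1 of 43 replication genes was higher (Fen1, 0.20) and 1 lower (Prim1, -0.23), and 1 of 32 mitotic genes was lower (Cdc25b, -0.26); each of these was lost without E2 replicate 1, 2 or 3.

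Signalling genes called higher were Stat3 and Socs2, of 16 tested genes of the erythropoietin receptor and JAK-STAT path (5 higher and 2 lower with the block). The share called was 12.5% beside 6.07% of all genes, of which the block called 16.9%. Stat3, a transcription factor activated by cytokine receptors, stood at 97.7, 101 and 95.3 CPM with E2 alone and 117, 126 and 113 CPM with TMG and E2 (log2 fold change 0.27 ± 0.05 (SE), adjusted p = 0.012). Socs2, a feedback inhibitor of such receptors, stood at 49.3, 50.6 and 46.2 CPM in the E2 libraries against 55.6, 58.0 and 59.1 CPM in the TMG_E2 libraries (log2 fold change 0.24 ± 0.05 (SE), adjusted p = 0.020). No E2 library reached the TMG_E2 values. Stat3 was lost without E2 replicate 1 or 3 (adjusted p = 0.0530 and 0.082) and Socs2 without any one E2 library or TMG_E2 replicate 2 (adjusted p up to 0.12). B2m, the light chain of MHC class I, was the called member of 9 tested interferon and MHC class I genes (11.1% beside 6.07% of all genes). Its log2 fold change was 0.26 ± 0.06 (SE), adjusted p = 0.020, and 2 members were higher with the block. All 9 had a positive log2 fold change, as did 3758 of all 7779 tested genes, and the median of the 9 was 0.11. B2m was lost without any one E2 library (adjusted p up to 0.10).

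Of 10 tested integrin and adhesion genes 2 were higher and none lower (3 higher with the block), a share of 20% beside 6.07% of all genes. Itgb2, the beta 2 integrin of leukocytes, stood at 43.9, 35.4 and 40.9 CPM with E2 alone and 57.0, 47.2 and 52.99 CPM with TMG and E2 (log2 fold change 0.39 ± 0.08 (SE), adjusted p = 0.018). Fermt3, kindlin-3, which activates integrins of blood cells, stood at 9.24, 6.202 and 7.69 CPM with E2 alone and 11.1, 10.3 and 11.8 CPM with TMG and E2 (log2 fold change 0.53 ± 0.13 (SE), adjusted p = 0.033). The groups did not overlap. Itgb2 was lost without E2 replicate 2 or 3 (adjusted p = 0.084 and 0.082). Fermt3, which passed the expression filter through the TMG_E2 libraries, was lost in 4 of the 6 fits. Markers of granulocytes and monocytes summed to 1.56 to 2.07 CPM in the E2 libraries and to 2.58 to 3.26 CPM in the TMG_E2 libraries, of which Coro1a made up nearly all; 7 of the 12 markers had 0 counts in all 6 libraries, among them Elane, S100a8, S100a9 and Csf1r. Mast cell markers summed to 88.7 to 95.0 CPM and 91.1 to 104 CPM, nearly all of it Kit, the other 9 staying under 1 CPM, and megakaryocyte markers, led by Nbeal2, summed to 37.1 to 39.8 CPM and 38.2 to 44.0 CPM, with Ppbp, Gp1bb and Vwf among those at 0. The part of these cell types in the adhesion genes was not tested.

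The lists of stress and protein quality held few calls, with shares of 9.09% for the unfolded protein response, 9.52% for heat shock and 4% for ATF4 targets beside 6.07% of all genes. Of 22 genes of the unfolded protein response Xbp1 was higher (0.20, adjusted p = 0.041) and the chaperone Hyou1 lower (-0.29, adjusted p = 0.0069), and of 21 heat shock and chaperonin genes Hsph1 (-0.18) and Hspe1 (-0.20) were lower (1 higher and 5 lower with the block). Of 25 ATF4 targets the amino acid transporter Slc7a1 was lower (-0.19, adjusted p = 0.034), and of 16 maturation genes (6.25% called) Ubac1 (-0.19, adjusted p = 0.0490). Of 6 histone genes (16.7% called) the variant H3f3a was higher (0.15, adjusted p = 0.0488). All 7 calls of these lists were lost without E2 replicate 3 (adjusted p 0.053 to 0.21), and all but Hyou1 also without E2 replicate 1 or E2 replicate 2. Ubac1 also missed the threshold with DESeq2 (0.095), its size factors (0.0525) filterByExpr (0.063) and no filter (0.057), and H3f3a with library size alone (0.053) and filterByExpr (0.051).

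Several lists held no call. For comparison, 1740 of all 7779 tested genes had an unadjusted p under 0.05. DESeq2 called 444 of them and the block 1315 (16.9%). By edgeR no gene was called of 37 proteasome genes (8 at an unadjusted p under 0.05, 0 with DESeq2, 5 with the block), 19 apoptosis genes (9, 0 and 6), 23 cytosolic aminoacyl-tRNA synthetases (3, 0 and 1), 18 glycolysis genes (1, 0 and 2), 13 fatty acid synthesis genes (2, 0 and 2) or 8 progenitor genes (4, 0 and 4). The same holds for 14 genes of the NuRD complex (3, 0 and 2), 21 Polycomb genes (5, 0 and 2) and 10 early response and AP-1 genes (3, 0 and 4). Of 19 OGT partners, which bind the transferase or carry the modification, and of 12 hypoxia targets none reached an unadjusted p under 0.05 or was called by DESeq2 or with the block.

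Whether the response to TMG depended on E2 was tested as an interaction in a fit of all 12 libraries and 8273 genes. TMG alone changed 422 genes (5.1%; 234 higher, 2.83%, and 188 lower, 2.27%) against untreated cells. Of the 472 genes called in E2-treated cells 127 were also called there, which is 26.9% of the former and 30.1% of the latter. Of these 127, 125 moved the same way. The groups of the 2 comparisons share no library. However, the fit behind the 422 calls took its filter, scaling and spread from all 12 libraries, those with E2 included. The interaction was called for 61 genes (0.737%), with a more positive response under E2 for 22 (0.266%) and a more negative one for 39 (0.471%), and 25 of the 61 were among the 472. Oga rose in both settings: TMG alone gave 0.36 ± 0.04 (SE) (adjusted p = 1.8e-05), and the interaction was 0.06 ± 0.05 (SE), adjusted p = 0.76. Aox4 and Fndc5 also moved in both, at -1.14 ± 0.08 (SE) and 1.42 ± 0.17 (SE) with TMG alone, with interactions of -0.05 ± 0.12 (SE), adjusted p = 0.94 and -0.42 ± 0.20 (SE), adjusted p = 0.47.

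In the gene lists, most held no called difference between the settings. The exceptions with most calls were 3 of 5 globins, 3 of 9 snoRNA host genes and 3 of 24 red cell membrane genes. The share of all 8273 genes was 0.737%. The snoRNA host list was chosen after its values were seen. Of 53 ribosome biogenesis genes 1 was lower with TMG alone, and the median was -0.03, but none had a called interaction by edgeR. For Polr1b the response without E2 was -0.12 ± 0.05 (SE) and the interaction -0.23 ± 0.08 (SE), adjusted p = 0.21. Of the 25 sterol genes 6 were higher with TMG alone (median 0.11), and of 22 NRF2 genes 1 (median 0.02); Nqo1 had an interaction of 0.22 ± 0.07 (SE), adjusted p = 0.20 and Srxn1 of 0.27 ± 0.06 (SE), adjusted p = 0.056, neither past the threshold. Impdh2 had a log2 fold change of -0.12 ± 0.03 (SE) without E2 (adjusted p = 0.0470; interaction -0.23 ± 0.05 (SE), adjusted p = 0.037), and Stat3 of -0.00 ± 0.04 (SE) (interaction 0.29 ± 0.06 (SE), adjusted p = 0.037). Traf3ip1 and Mvb12a had -0.22 ± 0.06 (SE) and -0.23 ± 0.08 (SE) without E2 (adjusted p = 0.0473 and 0.095), with interactions of -0.46 ± 0.09 (SE), adjusted p = 0.029 and -0.61 ± 0.12 (SE), adjusted p = 0.029. Of these interactions Impdh2, Stat3, Traf3ip1 and Mvb12a each lost the call in at least 7 of the 12 fits that left out a library.

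Il9r, a cytokine receptor subunit, went in opposite directions. On the scale of all 12 libraries it stood at 25.1 ± 1.10 CPM (SD, n = 3) in untreated cells, 30.0 ± 2.06 CPM with TMG, 132 ± 2.13 CPM with E2 and 103 ± 2.01 CPM with both. The fall under E2 (log2 fold change -0.37 ± 0.04 (SE), adjusted p = 0.00077) and the rise without it (0.25 ± 0.05 (SE), adjusted p = 0.013) differed by -0.61 ± 0.07 (SE), adjusted p = 0.00073, a call kept in all fits that left out a library. Of 5 tested globins 3 were called higher with TMG alone, beside 3 of 16 heme synthesis genes and 7 of 24 membrane genes. Among these 3 globins, Hbq1b stood at only 1.08 to 1.32 CPM in untreated cells and 2.08 to 2.62 CPM with TMG alone. It was tested through the E2 libraries. TMG alone raised Hba-a2 from 225 ± 12.1 to 396 ± 22.1 CPM, while with E2 the gene stood at 15709.6 ± 459 CPM and with both at 16923 ± 2427 CPM (interaction -0.70 ± 0.11 (SE), adjusted p = 0.0061). Hbb-bs went from 18.9 ± 1.91 to 30.7 ± 3.97 CPM with TMG alone and stood at 19753 ± 1159 and 21098 ± 605 CPM with E2 and with both (interaction -0.61 ± 0.11 (SE), adjusted p = 0.023; lost without Ctrl replicate 2 or 3, TMG replicate 1 or 2 or E2 replicate 2, with adjusted p up to 0.082). Alas2 stood at 2.15 ± 0.421 CPM (SD, n = 3) in untreated cells and 4.34 ± 0.562 CPM with TMG alone, below the filter's minimum, and at 651 ± 17.8 CPM with E2 and 724 ± 15.5 CPM with both, so that it was tested through the E2 libraries. It had an interaction of -0.85 ± 0.15 (SE), adjusted p = 0.012, with 1.01 ± 0.14 (SE) for TMG alone.

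**Figure D5:**
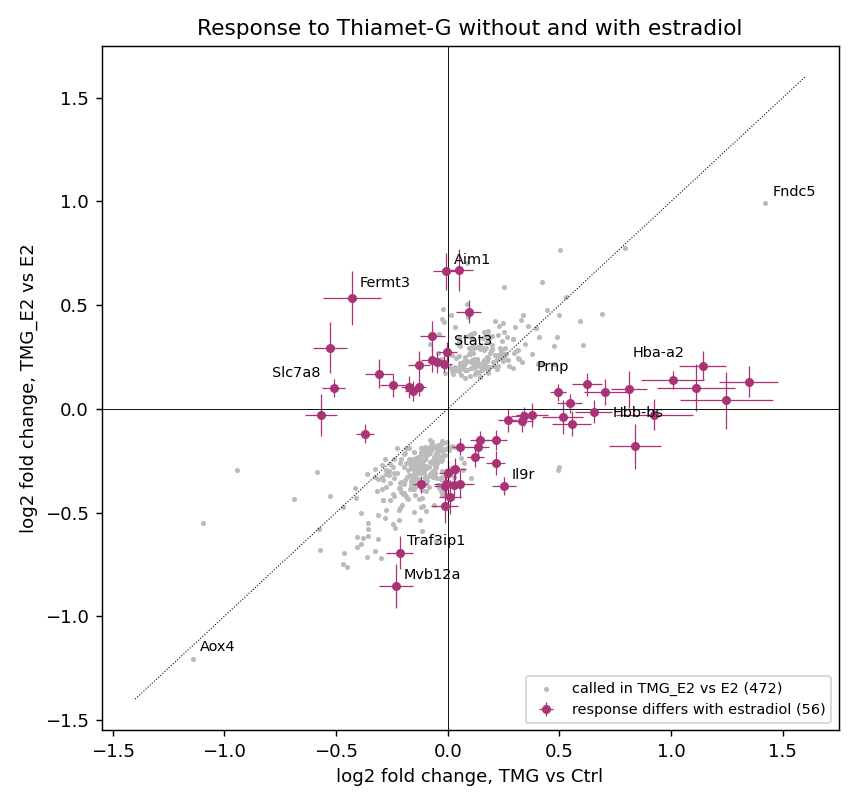
Log2 fold change of TMG_E2 against E2 (vertical axis) plotted against that of TMG against Ctrl (horizontal axis) for the 472 called genes (grey) and for 56 genes with a called interaction that were tested in both fits (purple, bars are SE). The dotted line marks equal responses; Hba-a2 and Hbb-bs lie to the right of it near 0 on the vertical axis, and Il9r lies below 0 vertically and above 0 horizontally.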

How the data were processed

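Polyadenylated RNA was sequenced paired-end from stranded libraries, per the labels' protocols and the series' design text. The deposited expected counts and TPM (a level per transcript length) per gene were made by the authors with RSEM 1.2.22 and Bowtie2 on GRCm38/mm10, per the submitters' processing notes and the design text; FastQC 0.11.2 and EdgeR 3.14.0 (with R 3.2.2) are also named there. RSEM's handling of strand is stated in none of the sources used here, and overlapping and antisense genes may share reads. TPM served only to compare levels between genes.

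Counts, rounded to integers, were tested with edgeR 4.0.16 (R 4.3.3; limma 3.58.1 loaded with it), using TMM scaling, the quasi-likelihood test and Benjamini-Hochberg adjustment over all genes tested at 0.05. Genes with CPM over 10 in at least 2 libraries were kept: 7779 in the 6 libraries and 8273 in all 12. CPM values are TMM-scaled over the 6 libraries unless given on the scale of 12; marker sums are scaled by library size alone. Levels carry the SD over 3 libraries a group. The SE of a log2 fold change is its absolute value divided by the square root of the test's F statistic. It therefore rests on a spread that edgeR moderates across genes. That spread comes from the 6 libraries for TMG_E2 against E2 and from all 12 for TMG against Ctrl and the interaction. A count of 0 allows up to 3 counts, or 0.129 to 0.169 CPM in these libraries, for counting error only. TMG against Ctrl and the interaction were fitted on all 12 libraries. On simulated counts for TMG_E2 against E2 over 7779 genes, 67.2% of 67 genes changed 1.2-fold were recovered, 98.5% at 1.5-fold and all at 2-fold. Of the calls, 4.84% were false. A call in either direction counted as recovered. The counts were drawn a single time, each library independently and with the same spread per gene in both groups. They held neither the pairing of same-numbered libraries nor the wider spread among the TMG_E2 libraries, so the rates may differ in the data.

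Deviations from the group means of same-numbered E2 and TMG_E2 libraries correlated at 0.32, 0.17 and 0.23, so the numbers appear to pair the libraries. This comes from the data, since the labels state no shared culture or day. The fit as reported and the fits that leave out a library carry no block, so their adjusted p-values do not use this pairing. The block is given as an alternative, and how its calls depend on single libraries was not examined. For TMG and Ctrl the values were 0.080, 0.027 and 0.18, and the numbers were not taken as pairing.

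The members and all gene lists were chosen with earlier results of these data known, and the intraflagellar transport, small nucleolar RNA host and mitochondrial aminoacyl-tRNA synthetase lists after the values were seen. Genes named are, for TMG_E2 against E2, the called genes with groups that do not overlap that have the 10 highest and 10 lowest log2 fold changes and the 10 smallest p. Called members of each list, all globins and O-GlcNAc cycling genes, Gata1, Gata2, Klf1, Kit and Myc were also named, as were the 5 genes with the smallest interaction p; some genes this takes in are counted but not reported here by name. Hmox1, Gclm, Kif3a, Kif3b, Sptb and Alas2 fall outside that rule and were picked after their values were seen. Gene positions and promoter windows are RefSeq's on GRCm38.p6, matched by symbol for 7614 of 7779 genes. Alternatives were other scalings (DESeq2's size factors, library size alone), filters (none, filterByExpr), the DESeq2 1.42.0 test, the replicate block, a fit of all 12 libraries and leaving out each library.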

Additional observations from a re-analysis of the deposited data

Results flagged for a closer look

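The response to TMG differed between cells with and without E2, by edgeR's interaction test on 12 libraries, for 15 of the genes followed; values are the log2 response under E2 minus that without E2. It was more positive under E2 for Fermt3 (0.97), Aim1 (0.68), Mylk3 (0.63), Slc7a8 (0.62), an amino acid transporter, and Stat3 (0.29). It was more negative for BB287469 (-1.20), the globins Hbq1b (-0.94), Hba-a2 (-0.70) and Hbb-bs (-0.61), Mvb12a (-0.61), Il9r (-0.61), BC057675 (-0.51), Traf3ip1 (-0.46), the prion protein gene Prnp (-0.40) and Impdh2 (-0.23). Hbq1b stood at 1.08 to 1.32 CPM in untreated cells and 2.08 to 2.62 CPM with TMG alone. Both are below the filter's minimum, so it was tested through the E2 libraries. BB287469 stood at 5.82 to 6.71 CPM in untreated cells and 14.8 to 16.8 CPM with TMG alone.

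The genes reached these values in different ways. Aim1 stood at 37.0 ± 1.08 CPM (SD, n = 3) in untreated cells and 36.8 ± 1.70 CPM with TMG alone, and at 10.7 ± 1.11 CPM with E2 and 17.1 ± 0.552 CPM with both, on the scale of 12 libraries. Slc7a8 fell with TMG alone from 383 ± 22.5 to 269 ± 20.4 CPM and stood at 203 ± 6.40 and 219 ± 8.63 CPM with E2 and with both. Prnp rose with TMG alone from 97.2 ± 0.913 to 137 ± 4.40 CPM and stood at 157 ± 3.38 and 167 ± 2.38 CPM under E2. Fermt3 stood at 11.1 ± 1.26 and 8.30 ± 1.15 CPM without E2 and at 7.95 ± 1.56 and 11.5 ± 0.829 CPM with it; its lower value with TMG alone did not pass the test (adjusted p = 0.069).

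Aim1, Hba-a2, Il9r, Slc7a8, BB287469, Prnp and BC057675 kept the interaction call under each alternative run, including the 12 fits that leave out a library. Fermt3, Mylk3, Mvb12a, Traf3ip1, Stat3, Impdh2, Hbb-bs and Hbq1b each lost it in at least 5 of these 12 fits, with adjusted p from 0.054 to 0.11. All 8 lost it when Ctrl replicate 3 was left out, as they did when E2 replicate 2 was, and 7 of the 8 without TMG replicate 1 (all but Mylk3), TMG replicate 2 (all but Hbq1b) or E2 replicate 3 (all but Hbb-bs). Without Ctrl replicate 1 or Ctrl replicate 2 it was 6 of the 8, without TMG replicate 3 4, without E2 replicate 1 or TMG_E2 replicate 2 3, without TMG_E2 replicate 1 Mylk3 and without TMG_E2 replicate 3 none. Stat3 also missed the threshold with library size alone (0.061) and with filterByExpr (0.053).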

How the results depend on the processing

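None of the 472 genes called in TMG_E2 against E2 changed sign under the alternatives run. Some list medians near 0 did: without TMG_E2 replicate 3 that of cytosolic ribosomal proteins went from 0.01 to -0.03, of oxidative phosphorylation from 0.02 to -0.0056, of ATF4 targets from 0.0047 to -0.05, of mitochondrial carriers from 0.0049 to -0.02 and of OGT partners from -0.03 to 0.03. Besides Bcl11a, Ubac1 and H3f3a, list members lost their call with DESeq2 (Ears2, Ift27 and Prdx4), its size factors (Dkc1, Ift27 and Tsr1), library size alone (Hsd17b7, Nbr1 and Uqcrb) or filterByExpr (Dkc1, Ift27, Nolc1, Nop16, Rps16 and Tsr1), with adjusted p from 0.051 to 0.093. For TMG_E2 against E2 the 472 calls (188 higher, 284 lower) became 803 (351 and 452) with no filter, 981 (473 and 508) in a fit of all 12 libraries and 1315 (565 and 750) with the replicate block. Leaving out 1 library gave 75 to 577 calls, 27 to 258 higher and 48 to 319 lower. Scaling by library size alone gave 158 higher and 313 lower. DESeq2, its size factors and filterByExpr stayed within 1.5 times the count as reported. The genes called were not all the same, since 401 of the 472 were among the 444 called with DESeq2. With DESeq2 3 of 109 named genes lost their call and with the block none did, while 6 gained one (Ogt, Uap1l1, Cmas, Gata2, Myc and BB287469); 53 lost it without E2 replicate 3 and 41 without E2 replicate 2. The block changed no other call among these 109 genes.

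For TMG against Ctrl the 422 calls (234 higher, 188 lower) became 671 (366 and 305) with the replicate block, where the numbers do not pair the libraries, and 768 (431 and 337) in a fit of the 6 libraries alone. Leaving out 1 library gave 197 to 257, 114 to 149 higher and 81 to 108 lower. The split was 180 higher and 232 lower with library size alone and 261 and 165 with DESeq2. The interaction count of 61 (22 more positive, 39 more negative) became 178 (71 and 107) with no filter, 99 (37 and 62) with DESeq2 and 151 (61 and 90) with the replicate block. Leaving out 1 library gave 18 to 161, 2 to 52 more positive and 14 to 109 more negative; the lowest was without Ctrl replicate 3 or E2 replicate 3 and the highest without TMG_E2 replicate 3. The cause of these shifts was not tested. With 3 libraries a group, 67.2% of simulated 1.2-fold changes were recovered for TMG_E2 against E2, in a simulation without the pairing or the unequal spread of the libraries. Genes below the expression filter were not tested.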

Other observations

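Lists chosen after their values were seen showed falls in other genes of RNA handling. Of 16 tested mitochondrial aminoacyl-tRNA synthetases, which charge tRNAs for the organelle's own ribosomes, 4 were lower with TMG under E2 and none higher (8 and 0 with the block). The share called was 25% beside 6.07% of all genes. Of the 16, 15 had a negative log2 fold change, with a median of -0.16. Vars2 stood at 29.1, 27.3 and 31.2 CPM with E2 alone and 20.9, 20.5 and 22.2 CPM with TMG and E2 (log2 fold change -0.46 ± 0.07 (SE), adjusted p = 0.0052). The groups were apart for Vars2, which was called in each of the 6 fits without a library; Ears2 (-0.32) and Iars2 (-0.19) were lost without any one E2 library, and 2 members remained called without E2 replicate 1, E2 replicate 3 or TMG_E2 replicate 2. Of the 23 cytosolic synthetases none was called by edgeR (3 at an unadjusted p under 0.05, 0 by DESeq2). The difference between these lists was not tested.

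Of 9 tested host genes of small nucleolar RNAs, which guide rRNA modification, 3 were lower (6 with the block) and 8 had a negative log2 fold change (median -0.14). The share called was 33.3% beside 6.07% of all genes. Snhg12 stood at 16.1, 16.9 and 17.0 CPM with E2 alone and 12.9, 12.01 and 11.1 CPM with TMG and E2 (log2 fold change -0.47 ± 0.08 (SE), adjusted p = 0.0069). Snhg4 stood at 19.9, 17.8 and 20.4 CPM with E2 alone and 15.4, 14.2 and 13.6 CPM with TMG and E2 (log2 fold change -0.42 ± 0.08 (SE), adjusted p = 0.012). Snhg5 stood at 36.9, 39.0 and 40.2 CPM with E2 alone and 30.6, 31.6 and 31.6 CPM with TMG and E2 (log2 fold change -0.31 ± 0.06 (SE), adjusted p = 0.011). The groups did not overlap for any of the 3. With TMG alone none of the 9 was called, and these 3 had a called interaction, at -0.44 ± 0.10 (SE), adjusted p = 0.043, -0.42 ± 0.08 (SE), adjusted p = 0.029 and -0.30 ± 0.06 (SE), adjusted p = 0.033. Without E2 replicate 3 none of the 3 was called under E2 (adjusted p = 0.0548, 0.082 and 0.077), and Snhg5 was also lost without E2 replicate 2 (0.063). Npm3, a nucleolar histone chaperone chosen likewise, stood at 63.3, 63.0 and 68.0 CPM with E2 alone and 48.2, 50.5 and 52.4 CPM with TMG and E2 (log2 fold change -0.37 ± 0.05 (SE), adjusted p = 0.0031), called in each of the 6 fits, with an interaction of -0.38 ± 0.06 (SE), adjusted p = 0.0057.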
